A study of Sus scrofa with 24 samples.

Results

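Genes of multiciliated cells, the airway cells that carry bundles of motile cilia, were followed in pig bronchial epithelium grown with its upper surface in air. A list of 42 gene symbols known from ciliated cells was looked up among the 25880 pig genes of the deposited count table. The symbol of 36 of them was found, and 35 had at least 0.5 CPM, counts scaled to the same library total, in 4 or more of the 24 libraries and were kept. CAPS, a calcium-binding protein of ciliated cells, had 0 counts in all 24 libraries, which allows up to 3 counts in each. CDC20B, DNALI1, HYDIN, TEKT4, CFAP53 and PIFO were not analysed here, as no row carried their symbol. At the same filter, 13640 genes of the whole table were kept.

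All cultures came from wild-type pigs of 1 month, and all were preincubated for 1 h before the stimulus. The PBS and flagellin groups were preincubated with the solvent DMSO, and the SB203580 plus flagellin groups with 20 µM SB203580, a small-molecule inhibitor of the p38 MAP kinases. Flagellin, the protein of the bacterial flagellum that TLR5 recognises, was then given at 100 ng/ml, or PBS in its place, for 2 or 24 h. Each of the 6 groups had 4 libraries, numbered 1 to 4, and no group with SB203580 but without flagellin was analysed here, so an action of SB203580 alone cannot be told apart. The labels do not say whether the 4 numbers are separate animals, cultures or pools, so p-values reflect only how these libraries vary, which may be technical. Earlier results of these data showed replicates 1 and 2 apart from replicates 3 and 4 by Y-linked genes, which are not on the list. Each pair is called a set below.

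Motile cilia are built around a ring of doublet microtubules with a central pair, and dynein arms on the doublets slide them against each other to make the cilium beat. Beating cilia move mucus out of the airways. An epithelial precursor becomes multiciliated when Notch signalling in it is low: GMNC and MCIDAS then switch on the programme, MYB, FOXJ1 and the RFX factors turn on its genes, and deuterosomes, built with DEUP1 and CCNO, supply the many centrioles from which the cilia grow. Loss of CCNO, MCIDAS, RSPH4A, DNAH5, DNAI1, CCDC39 or CCDC40 causes ciliary disease of the airways in people.

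Libraries held 26345945 to 36267289 pig counts, and all 36 pairs of libraries within a group differed by more than sampling noise (mean chi-square per gene 10.3 to 390.3). Among the summed markers of other cells in the cultures, basal and proliferation markers differed between the sets without overlap. The other lists overlapped. Tuft cell markers ranged from 11.3 to 16.5 CPM in replicates 1 and 2 and from 11.8 to 15.0 in replicates 3 and 4. Ionocyte markers ranged from 27.4 to 120 and from 39.0 to 119. Summed over each list, basal markers ranged from 5732 to 8081 CPM in replicates 1 and 2 and from 9895 to 12813 in replicates 3 and 4, and proliferation markers from 146 to 343 and from 44.2 to 110.3. Goblet markers ranged from 188 to 1060 CPM and from 108 to 202, squamous markers from 2824 to 14210 and from 2684 to 3684, and club and secretory markers from 3483 to 6068 and from 3155 to 4286. Of the markers of non-epithelial cells, 5 of 12 immune genes (CD3E and CD163 at 0 counts), 3 of 11 fibroblast and smooth muscle genes and 4 of 7 endothelial genes (ERG at 0) stayed below 0.5 CPM in every library, and the others did not. Summed, immune markers ranged from 45.3 to 171 CPM in replicates 1 and 2 and from 19.8 to 47.1 in replicates 3 and 4, fibroblast and smooth muscle markers from 207 to 446 and from 118 to 218, and endothelial markers from 83.0 to 367 and from 161 to 515. The highest of these per length were TAGLN, an actin-binding protein, with a median of 64.3 RPKM, and KDR, a VEGF receptor, with 33.3. Of the other endothelial markers, TIE1 had 0.622 and PECAM1 0.393. Of the other fibroblast and smooth muscle markers, DCN had 7.28, COL1A1 0.511, COL1A2 0.179 and PDGFRB 0.0217. Single genes can therefore carry such a sum, and the sums do not show that these cells were present. Within replicates 1 and 2, BPIFA1, a secretory cell protein named after its values were seen, was at 0.618 to 4.88 CPM in 5 libraries (PBS 2 h replicate 2, SB203580 plus flagellin 2 h replicate 1, flagellin 24 h replicate 2, and SB203580 plus flagellin 24 h replicates 1 and 2) and at 37.2 to 318.8 CPM in the other 7. In replicates 3 and 4 it was at 1.67 to 129.9 CPM, a range that overlaps both. Club and secretory markers as a whole summed to 3483 to 4760 CPM in those 5 and to 4734 to 6068 in the 7, so the list overlapped where BPIFA1 did not. Squamous markers summed to 6816 to 14210 CPM in those 5 and to 2824 to 8802 in the 7. The part of these cell markers in any result below was not tested.

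Transcripts of the 35 genes were scarce. Per length, as CPM per kilobase of exons (RPKM), the median over the 35 genes was 0.626, and the median over all 14172 genes tested was 6.07; each of the 35 lay below that. The epithelial genes KRT8, a keratin, and EPCAM, an adhesion protein, had medians of 333.9 and 46.7 RPKM. The highest of the 35 were DYNLRB2, a dynein light chain, with a median of 4.61 RPKM, RFX2 with 3.62, and ROPN1L, a radial spoke protein, with 3.5. FOXJ1, the central transcription factor of motile cilia, had 2.19, MCIDAS 1.34 and CCNO 0.903. DNAH5 and DNAI1, a heavy and an intermediate chain of the outer dynein arm, were lowest, with 0.153 and 0.162. In raw reads, the counts per library ran from 1 to 32 for DNAI1, 2 to 188 for STK33, 54 to 758 for FOXJ1 and 362 to 1324 for TPPP3, a tubulin-binding protein. For the lowest genes, single libraries therefore carry large counting error.

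Most of these genes went up and down together from library to library. FOXJ1 at 2 h was at 17.6, 4.60, 10.8 and 5.99 CPM in the PBS libraries 1 to 4, at 18.5, 22.8, 5.37 and 4.05 CPM with flagellin, and at 7.0, 9.14, 3.85 and 4.24 CPM with SB203580 plus flagellin. At 24 h it was at 19.0, 15.8, 6.06 and 6.91 CPM in PBS, at 18.3, 8.17, 3.28 and 1.53 CPM with flagellin, and at 6.96, 3.46, 3.47 and 3.65 CPM with SB203580 plus flagellin. The 7 libraries with the highest FOXJ1 were the 7 with the highest typical level of the 35 genes, taken as the median log2 ratio to each gene's own median: 6 of them were libraries of replicates 1 or 2 and the other was PBS 2 h replicate 3. That median log2 ratio was highest in flagellin 2 h replicates 1 (1.46) and 2 (1.39) and lowest in SB203580 plus flagellin 24 h replicate 2 (-0.86) and PBS 2 h replicate 2 (-0.78). In the 5 libraries of replicates 1 and 2 with little BPIFA1, FOXJ1 was at 3.46 to 8.17 CPM, and in the other 7 of replicates 1 and 2 at 9.14 to 22.8, with no overlap. In these bulk samples, fewer ciliated cells and less ciliated-cell RNA per cell cannot be told apart.

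Members differed in how closely they kept to that order. For 27 of the 35, at least 6 of their own 7 highest libraries were among the same 7, which took in 7 of 7 dynein arm genes, 4 of 4 radial spoke genes and 3 of 3 central pair genes. The 8 others shared 4 or fewer. They were 5 of the 6 transcription regulators (MCIDAS, GMNC, RFX2, RFX3 and MYB), CCDC39 and CCDC40, the rulers that space the dynein arms, and CFAP43, a doublet-linked protein. As all libraries share this comparison and the libraries were ranked with these genes, the counts describe the pattern and test nothing.

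**Figure D1:**
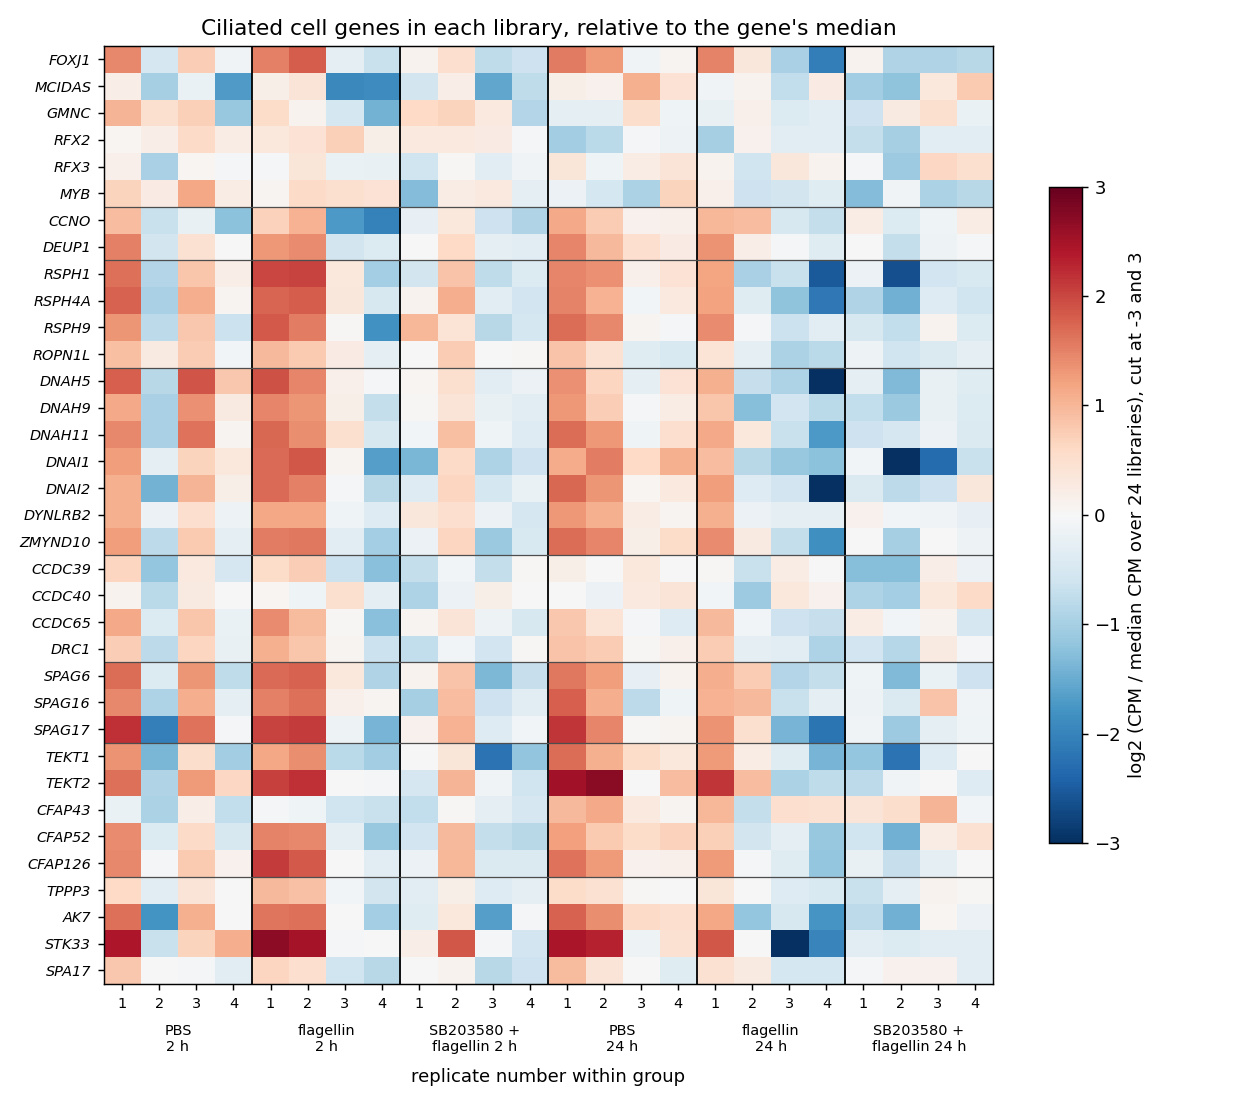
Each row is 1 of the 35 genes, ordered by role with lines between roles, and each column 1 of the 24 libraries. Colour gives the log2 ratio of the CPM to the gene's median over all libraries. Most genes of the axoneme are high in flagellin 2 h replicates 1 and 2 and low in PBS 2 h replicate 2, while MCIDAS, RFX2, RFX3 and CCDC40 follow other patterns.

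The first question was whether flagellin changed these genes. None of the 35 was called in edgeR's quasi-likelihood test (adjusted p under 0.05 over all 14172 genes) at 2 h, where 0.325% of all genes were called, or at 24 h, where 0.0% were. At an unadjusted p under 0.05 the count was also 0 of 35 at both times, beside 5.09% and 0.79% of all genes, and DESeq2 called 0 as well. At 2 h the log2 fold change was positive for 30 and negative for 5, with a median of 0.22. This direction was not shared by the sets. With replicates 1 and 2 alone the median was 0.72, and with replicates 3 and 4 alone -0.82. Without the 5 libraries of replicates 1 and 2 with little BPIFA1 it was 0.0036. Leaving out these 5 makes the compared groups unequal in set. Here and below, fits of treatment or time without them therefore mix in the difference between the sets. FOXJ1 had a log2 fold change of 0.38 (SE 0.65), CCNO 0.15 (SE 0.58), RSPH1 0.58 (SE 0.71) and DNAH5 -0.14 (SE 0.64), each within its error.

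At 24 h with flagellin, 34 of the 35 genes had a negative log2 fold change, with a median of -0.59; the median over all genes was within 0.03 of 0 in each comparison. The median was -0.57 in the first set, -0.73 in the second, and -0.63 without the 5 libraries. Of the 35 genes, 25 (71.4%) were lower with flagellin than with PBS at all 4 replicate numbers, as were 7.58% of all genes. No member had all 4 flagellin libraries below all 4 PBS libraries, as was so for 0.423% of all genes. The genes share their libraries, so 25 genes are not 25 independent observations. AK7, an adenylate kinase of the axoneme, was at 6.33, 4.84, 2.75 and 2.61 CPM in PBS and at 4.12, 0.821, 1.32 and 0.539 CPM with flagellin, its log2 fold change being -1.27 (SE 0.70; edgeR adjusted p = 0.9999). FOXJ1 had -0.61 (SE 0.65), RSPH1 -1.11 (SE 0.72), DNAH5 -0.92 (SE 0.65) and DNAI1 -1.35 (SE 0.67), all with an edgeR adjusted p of 0.9999. STK33, a kinase of motile cilia, had the lowest value, -1.35 (SE 0.91). By role, the median was -0.87 for the 7 dynein arm genes, -0.77 for the 4 radial spoke genes and -0.75 for the 5 doublet genes, and -0.22 for the 4 nexin-dynein and ruler genes and -0.20 for the 6 regulators. The test of the change between 2 and 24 h in the flagellin effect called 0 of 35 members (0.0423% of all genes; 0 by DESeq2; 0 at an unadjusted p under 0.05, beside 1.66% of all genes). The median difference was -0.80, and by set it was -1.27 (replicates 1 and 2) and -0.14 (replicates 3 and 4).

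The next question was what SB203580 changed in the presence of flagellin. Against flagellin alone, 0 of 35 were called at 2 h (0.00706% of all genes) and 0 at 24 h (0.0%), by edgeR and by DESeq2. The count with an unadjusted p under 0.05 was 2 at 2 h, DNAI1 (log2 fold change -1.40, SE 0.67) and TPPP3 (-0.63, SE 0.29), beside 2.27% of all genes, and 0 at 24 h, beside 2.86%. TPPP3 was at 40.7, 38.3, 19.7 and 14.2 CPM with flagellin and at 16.7, 23.5, 15.9 and 16.9 CPM with SB203580 plus flagellin, so the groups overlapped. The median was -0.81 at 2 h and -0.36 at 24 h. At 24 h the sets went opposite ways, with a median of -1.21 in replicates 1 and 2 and of 0.56 in replicates 3 and 4. At 2 h the medians were -1.07 and -0.092. Both SB203580 libraries of replicates 1 and 2 at 24 h are among the 5 libraries. The difference between times in the SB203580 effect was called for 0 of 35 (0.0% of all genes; 0 by DESeq2; 0 at an unadjusted p under 0.05, beside 0.797%).

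The lowest fold changes were those of SB203580 plus flagellin against PBS at 24 h, a comparison that shares its PBS libraries with the one of flagellin above. Again 0 of 35 were called by edgeR (0.00706% of all genes) and 0 by DESeq2, but 12 had an unadjusted p under 0.05, all with negative fold changes, beside 4.25% of all genes in either direction and 1.8% lower. In all, 34 of 35 fold changes were negative, from -2.20 to 0.04 with a median of -1.07. In 14 of the 35 (40.0%), all 4 SB203580 plus flagellin libraries lay below all 4 PBS libraries, as was so for 1.35% of all genes. Those 14 were DEUP1, RSPH1, RSPH4A, DNAH9, DNAH11, DNAI1, ZMYND10, SPAG17, TEKT1, TEKT2, CFAP52, CFAP126, AK7 and STK33, which take in genes of the deuterosome, the spokes, the dynein arms, the central pair and the doublets. Without the 5 libraries, which left 2 against 4, the count was 16 of 35, beside 8.91% of all genes, and the median was -0.96. The 2 were replicates 3 and 4, set against PBS libraries of both sets. That fit therefore mixes the difference between the sets with the treatment. By set, the median was -1.78 (replicates 1 and 2) and -0.28 (replicates 3 and 4).

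TEKT2, a filament protein inside the doublets, had the largest difference in this comparison. It was at 5.01, 5.64, 0.866 and 1.65 CPM in PBS at 24 h and at 0.502, 0.807, 0.862 and 0.669 CPM with SB203580 plus flagellin, so that the third PBS library lay only just above the highest treated one. Its log2 fold change was -2.20 (SE 0.74; edgeR adjusted p = 0.9999; unadjusted 0.0076), and over the alternatives it ran from -3.03 to -0.73 with no adjusted p under 0.217. RSPH4A, a protein of the radial spoke head, was at 5.68, 4.16, 1.92 and 2.46 CPM in PBS and at 1.08, 0.743, 1.54 and 1.34 CPM with SB203580 plus flagellin. The treated libraries were all lower, and the log2 fold change was -1.59 (SE 0.68; edgeR adjusted p = 0.9999). DNAI1 was at 0.578, 0.771, 0.402 and 0.560 CPM in PBS and at 0.251, 0.0323, 0.0539 and 0.167 CPM with treatment, its log2 fold change being -2.18 (SE 0.70; edgeR adjusted p = 0.9999). These levels came from 13 to 25 reads per library in PBS and from 1 to 7 with treatment. FOXJ1 had a log2 fold change of -1.45 (SE 0.66), RSPH1 of -1.67 (SE 0.74) and DNAH5 of -1.15 (SE 0.65), while CCNO (-0.61, SE 0.58), MCIDAS (-0.54, SE 0.55) and GMNC (0.04, SE 0.43) were within about 1 SE of 0. At 2 h the same comparison with PBS called 0 of 35 (0.183% of all genes; 0 by DESeq2), with a median of -0.55 (-0.33 in replicates 1 and 2 and -0.89 in replicates 3 and 4). MYB was the 1 member with an unadjusted p under 0.05, beside 4.75% of all genes.

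**Figure D2:**
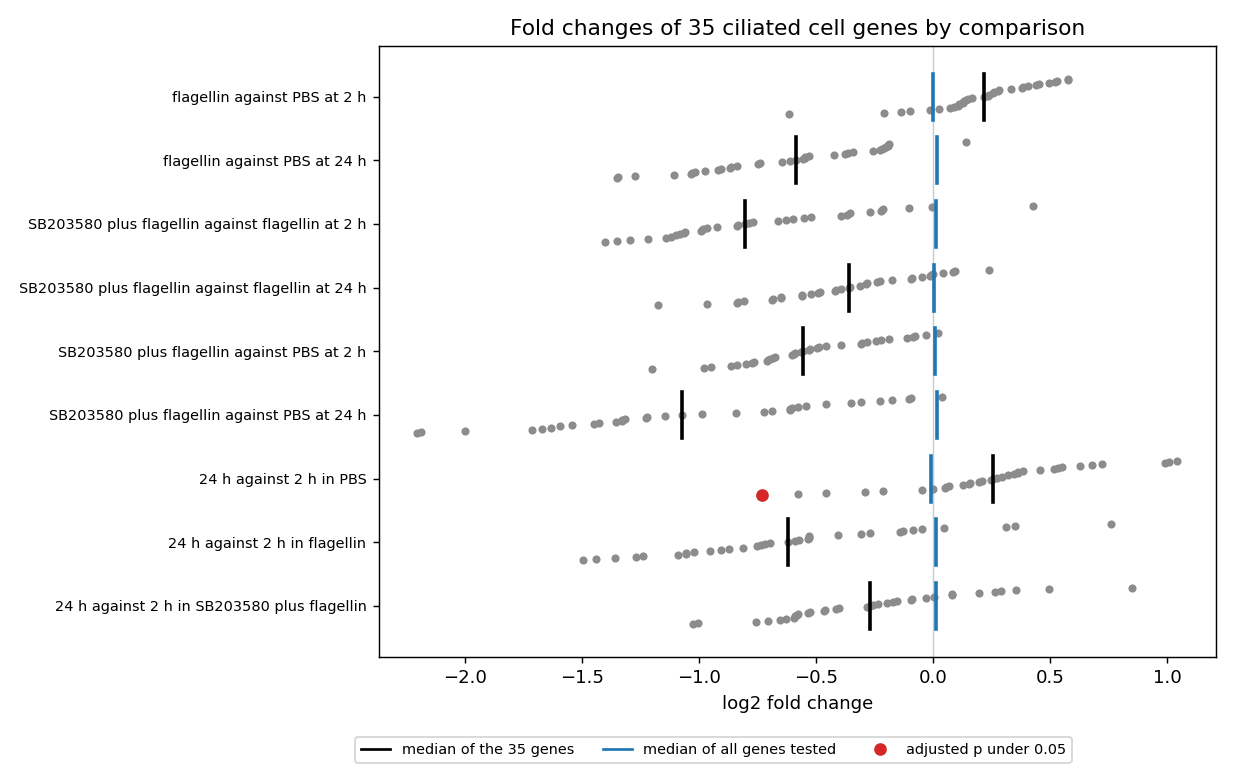
Log2 fold changes of the 35 genes (grey points, sorted within each row) in 9 comparisons, with the median of the 35 genes (black bar) and of all genes tested (blue bar). The row of SB203580 plus flagellin against PBS at 24 h lies furthest to the left, with a median of -1.07, and the red point, RFX2 in PBS, is the single value with an adjusted p under 0.05.

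With time in culture, 1 member was called in PBS (2.86%, a smaller share than of all genes). It was RFX2, a factor that binds the promoters of cilium genes. In PBS it was at 14.3, 15.9, 20.6 and 16.0 CPM at 2 h and at 6.68, 7.89, 13.2 and 12.4 CPM at 24 h. It fell by 0.73 on the log2 scale (SE 0.23; edgeR adjusted p = 0.0474; lower at 4 of 4 replicate numbers), and was 1 of 35 members called, where 10.2% of all genes were called and 4.88% were called lower. The mean went from 16.7 ± 2.70 to 10.0 ± 3.23 CPM (SD, n = 4). With flagellin it was at 17.2, 18.5, 22.4 and 15.5 CPM at 2 h and 6.92, 15.1, 11.1 and 11.1 CPM at 24 h, and with SB203580 plus flagellin at 16.9, 16.8, 16.3 and 13.2 and then at 8.43, 6.85, 11 and 11.1 CPM. In each of the 3 conditions all 24 h libraries were below all 2 h libraries, as was so for 8.23%, 7.11% and 5.91% of all genes. Its log2 fold changes there were -0.73 (SE 0.23; adjusted p = 0.0543) and -0.76 (SE 0.23; adjusted p = 0.0518), just outside the threshold, so 0 of 35 members were called with flagellin (7.9% of all genes) and 0 with SB203580 plus flagellin (6.88%). With a block for the replicate number, RFX2 was called in all 3 conditions (adjusted p = 0.0123, 0.0146 and 0.0126). When single libraries were left out, its call in PBS held in 2 of 8 fits, and the adjusted p ran from 0.0343 to 0.145.

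Over all 6 groups at once RFX2 was the 1 member called (adjusted p = 0.00998), where 15.3% of all genes were; with the replicate block the number was 5 (30.5% of all genes). The block also called CFAP43, which rose in PBS from 0.744, 0.438, 0.981 and 0.509 CPM to 1.67, 1.88, 1.05 and 0.902 CPM (log2 fold change 1.05; adjusted p = 0.0334, 22.5% of all genes called with the block). It likewise called ROPN1L with flagellin, which was lower at 24 h (-0.82; adjusted p = 0.0324; 18.8% of all genes). At 24 h against 2 h, the median over the 35 genes was 0.26 in PBS, -0.62 with flagellin and -0.27 with SB203580 plus flagellin. The sign depended on the set in PBS, where the median was 0.59 in replicates 1 and 2 and -0.20 in replicates 3 and 4 (0.06 without the 5 libraries). It also did with SB203580 plus flagellin, where the median was -0.86 and 0.28 (-0.14 without the 5). In that last fit the 24 h libraries left were replicates 3 and 4, so it mixes set with time. With flagellin the median was -0.70 and -0.53. In the flagellin groups 16 of 35 were lower at all 4 replicate numbers, beside 16.9% of all genes. RFX3, the other RFX factor listed, and MYB had no adjusted p under 0.05 in these time comparisons.

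The sets of replicates gave the largest number of called members. When the set was added to the model, separately for 2 and 24 h, 15 of the 35 were lower in replicates 3 and 4 than in 1 and 2 at 2 h (42.9%, where 25.8% of all genes were called lower), and 0 were higher (26.2%). At 24 h 10 were lower (28.6%, beside 32.9%) and 3 higher (8.57%, beside 31.6%). These are comparisons of sets of libraries, not of conditions, and 52.0% of all genes at 2 h and 64.6% at 24 h were called in either direction. Each set repeats the same 2 replicate numbers in every group, and same-numbered libraries deviated together. The libraries of a set were still counted as independent. The SEs and p-values of the set comparisons, here and below, can therefore be too small. Regulators and deuterosome genes lower at 2 h were FOXJ1, MCIDAS, GMNC, CCNO and DEUP1. The others were RSPH9, DYNLRB2, ZMYND10 (needed to assemble dynein arms), CCDC65, SPAG6, TEKT1, CFAP52, CFAP126, STK33 and SPA17.

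SPA17, a protein first known from sperm, had the smallest adjusted p of them. At 2 h it was at 4.60 to 8.07 CPM (median 5.70) in the first set of 6 libraries, replicates 1 and 2, and at 2.58 to 4.38 CPM (median 3.01) in the 6 of replicates 3 and 4. The sets did not overlap, and the log2 difference was -0.91 (SE 0.17; edgeR adjusted p = 0.000204); at 24 h it was -0.63 (SE 0.17; adjusted p = 0.00288). CCNO, a cyclin-like protein of deuterosomes, was at 1.81 to 5.92 CPM (median 4.08) at 2 h in replicates 1 and 2 and at 0.708 to 2.45 CPM (median 1.38) in replicates 3 and 4. Its log2 difference was -1.48 (SE 0.34; adjusted p = 0.00135) at 2 h and -0.76 (SE 0.33; adjusted p = 0.0478) at 24 h. FOXJ1 differed by -1.17 (SE 0.38; adjusted p = 0.0147) and by -1.48 (SE 0.38; adjusted p = 0.00263).

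Some members went against the rest at 24 h. CCDC40 was at 3.77 to 7.96 CPM (median 5.66) in replicates 1 and 2 and at 8.80 to 12 CPM (median 10.0) in replicates 3 and 4, with no overlap, a log2 difference of 0.85 (SE 0.20; edgeR adjusted p = 0.00117). Its partner CCDC39 had 0.56 (SE 0.32; adjusted p = 0.128). RFX2 (0.45, SE 0.16; adjusted p = 0.0195) and RFX3 (0.53, SE 0.22; adjusted p = 0.0408) were also higher in replicates 3 and 4. Without the 5 libraries, which belong to replicates 1 and 2, the RFX3 difference was 0.15 (edgeR adjusted p = 0.421) and was no longer called, that of CCDC40 was 0.38 (adjusted p = 0.0345) and that of RFX2 0.76 (adjusted p = 0.000166).

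**Figure D3:**
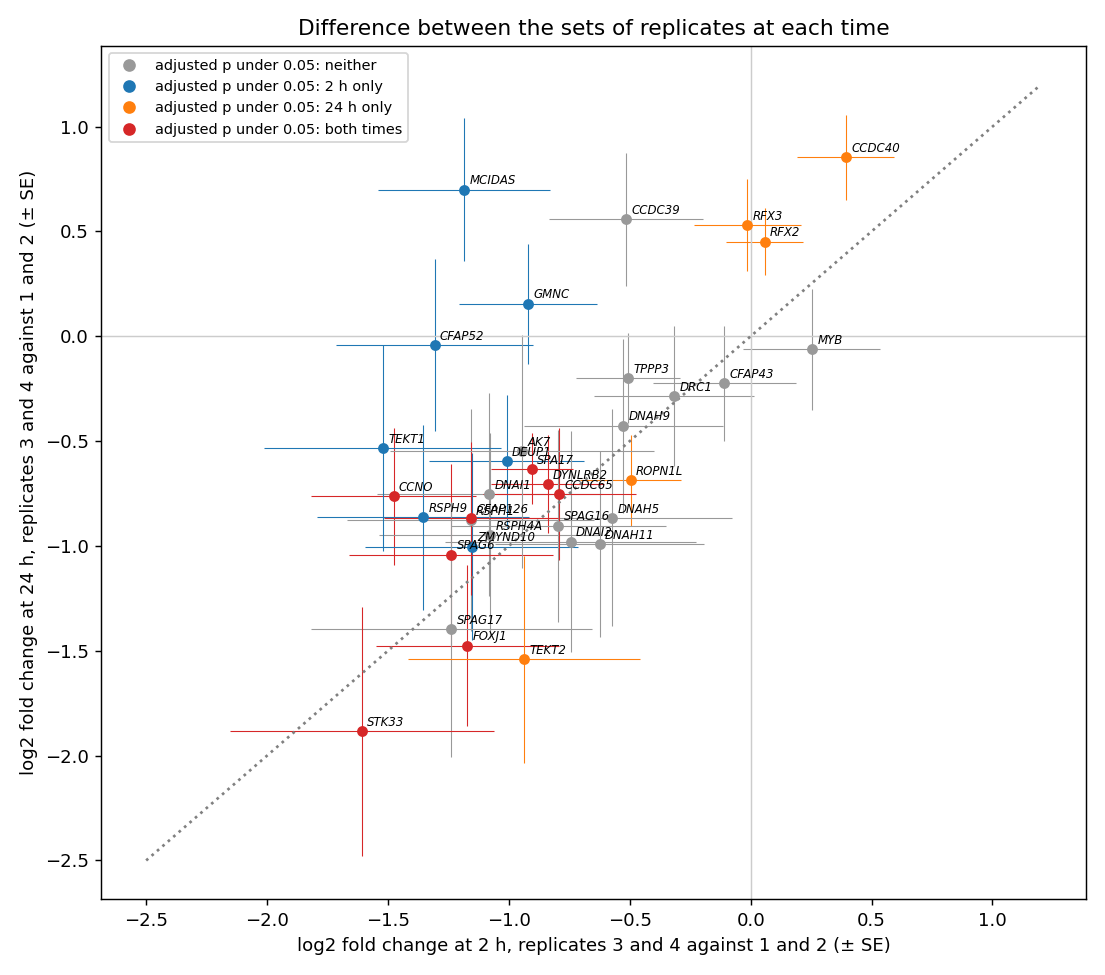
Log2 difference between replicates 3 and 4 and replicates 1 and 2 at 2 h (horizontal) and at 24 h (vertical) for each of the 35 genes, with 1 SE each way; colour gives the times at which the adjusted p was under 0.05 and the dotted line marks equal values. Most genes lie below 0 on both axes, and CCDC40, RFX2, RFX3, MCIDAS, CCDC39 and GMNC lie above 0 at 24 h.

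MCIDAS, the geminin-family switch of the multiciliated programme, did not keep its difference between the sets. It lies on chromosome 16 at 34377960 to 34384438, 2007 bases from CCNO at 34386446 to 34390651 on the same strand (coordinates of the deposited table, pig assembly not given in the sources used here). At 2 h it was at 1.79, 0.782, 1.75, 2.04, 1.06 and 1.78 CPM in replicates 1 and 2 of PBS, flagellin and SB203580 plus flagellin in turn, and at 1.37, 0.479, 0.406, 0.425, 0.534 and 0.923 CPM in replicates 3 and 4. At 24 h it was at 1.77, 1.70, 1.44, 1.68, 0.753 and 0.678 CPM in replicates 1 and 2 and at 3.28, 2.12, 0.933, 1.84, 1.94 and 2.68 CPM in replicates 3 and 4. So replicates 3 and 4 were mostly the lower at 2 h and mostly the higher at 24 h, with overlap at both times. The log2 difference was -1.19 (SE 0.36; edgeR adjusted p = 0.00896) at 2 h and 0.70 (SE 0.34; adjusted p = 0.0777) at 24 h, and a test of the change between the times, added after the data were seen, gave 1.89 (adjusted p = 0.0053). GMNC, which acts with MCIDAS, gave 1.08 (adjusted p = 0.0444), a call lost in 14 of 24 fits that left out 1 library. They were the 2 members called in that test (5.71%), where 35% of all genes were called.

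**Figure D4:**
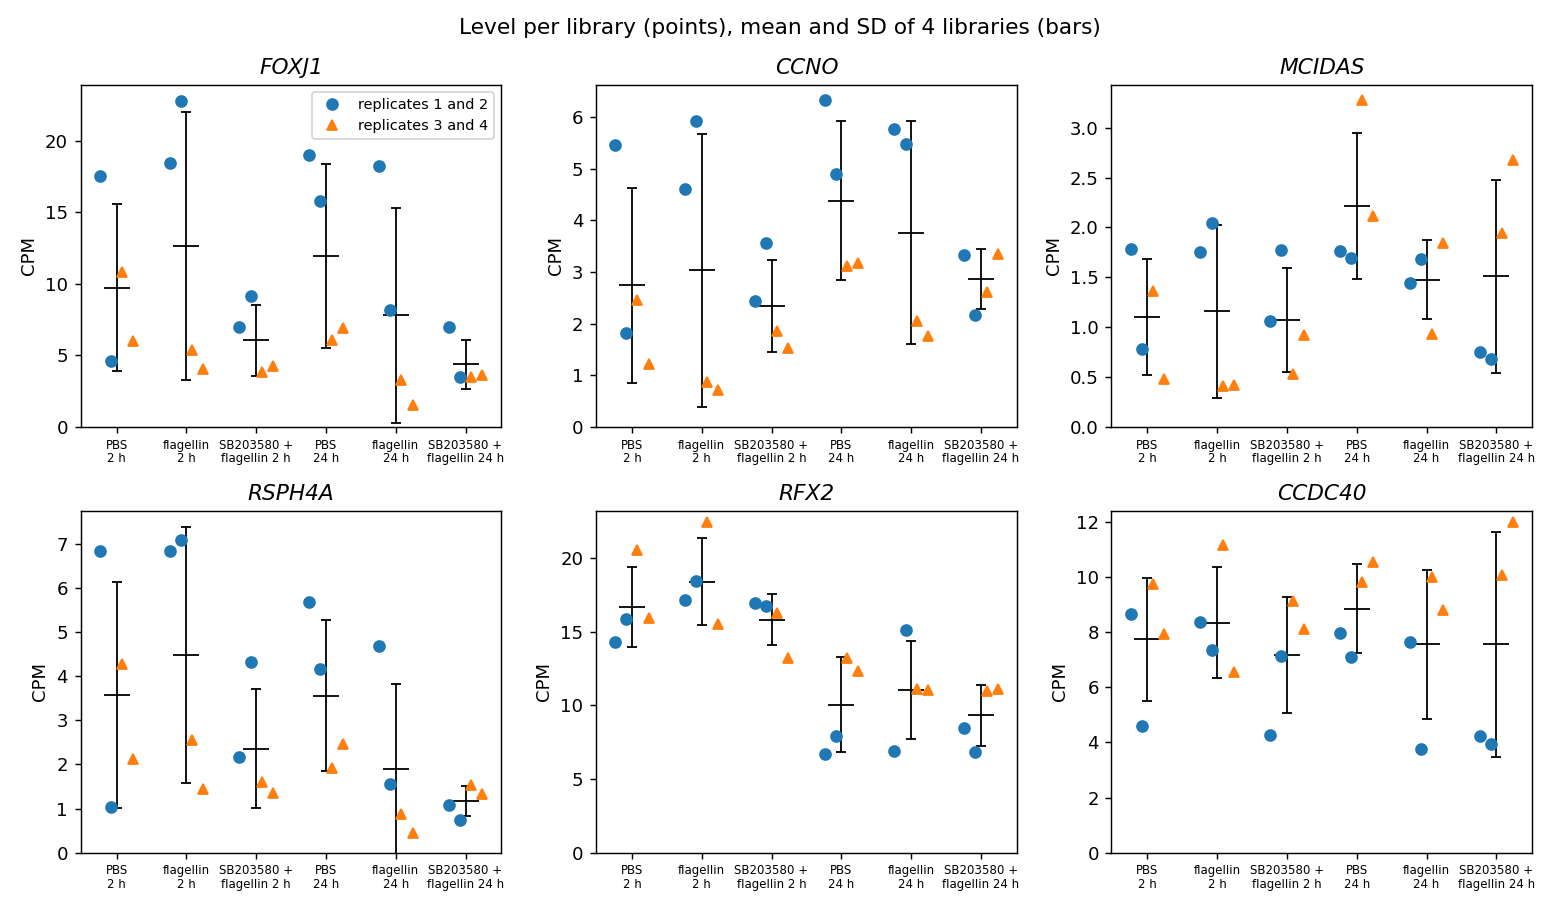
CPM of 6 members in the 24 libraries, with replicates 1 and 2 as circles and 3 and 4 as triangles; black bars give the mean and SD of the 4 libraries of a group, cut at 0. FOXJ1, CCNO and RSPH4A are mostly higher in the circles, CCDC40 at 24 h is higher in the triangles, and RFX2 is lower at 24 h in all 3 conditions.

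Other genes of the cilium were read for comparison. Of 97 further genes of the motile axoneme, 79 were tested and 0 were called in any of the 6 comparisons of treatments. Their medians were 0.24 and -0.55 for flagellin at 2 and 24 h, -0.71 and -0.19 for SB203580 plus flagellin against flagellin, and -0.44 and -0.88 for it against PBS, each with the sign of the median of the 35 genes. At 24 h against PBS, 24 of the 79 had an unadjusted p under 0.05, each of them lower in the treated group, where 1.8% of all genes were. Genes that primary cilia of other cells also use had medians nearer 0 in these 6 comparisons, from -0.08 to 0.09 for 29 genes of intraflagellar transport and from -0.05 to 0.04 for 26 genes of the BBSome and transition zone; 0 of either list were called. For 17 genes of centriole assembly, 10 further genes of multiciliated fate and 21 of the Notch pathway, 0 were called too, with medians from -0.07 to 0.14.

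With time, BBS1, a BBSome subunit, rose in PBS (log2 fold change 0.85, SE 0.11; edgeR adjusted p = 9.52e-05), with flagellin (0.58, SE 0.11; adjusted p = 0.00287) and with SB203580 plus flagellin (0.67, SE 0.11; adjusted p = 0.000957). HES1, a Notch target that represses differentiation, fell in PBS (-1.0, SE 0.18; adjusted p = 0.00147) and with flagellin (-0.69, SE 0.18; adjusted p = 0.0205). In PBS 2 of 21 Notch genes were called, the other being the ligand DLL4, which rose by 1.06 (SE 0.28; adjusted p = 0.0198). GMNN, which codes for geminin, fell with flagellin (-0.40, SE 0.11; adjusted p = 0.0284). Those counts stand beside 10.2% of all genes called in PBS and 7.9% with flagellin.

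**Figure D5:**
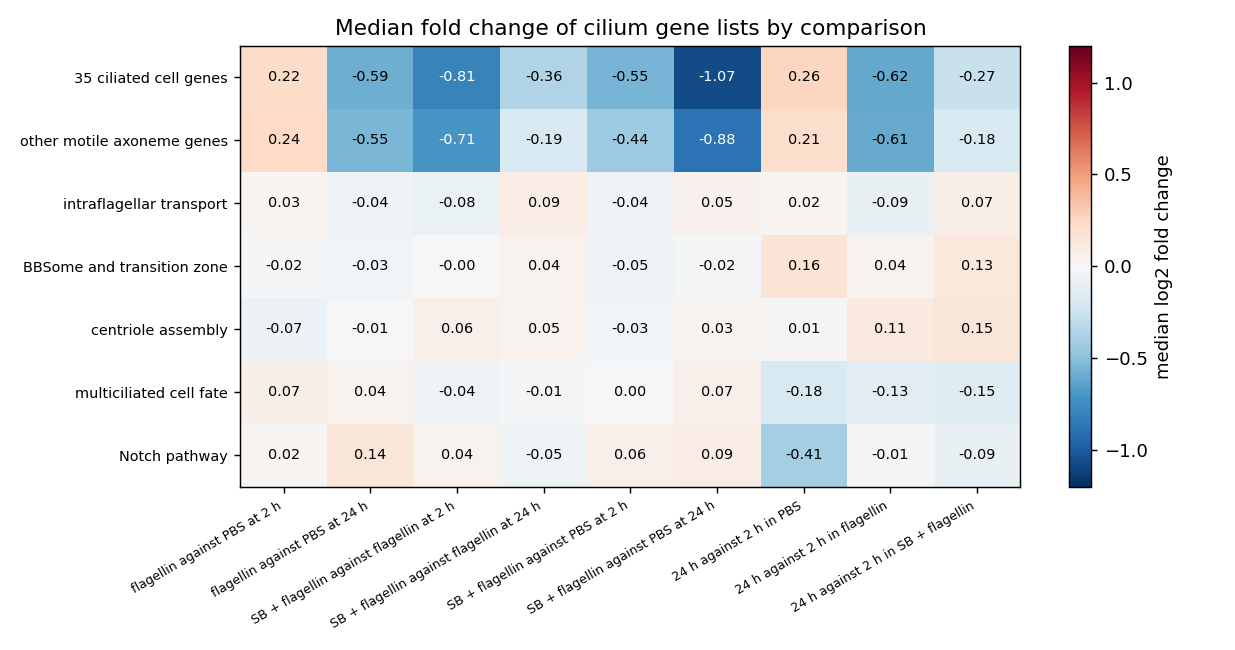
Median log2 fold change of the 35 genes and of 6 lists of related genes in 9 comparisons. The further genes of the motile axoneme follow the 35 genes in sign, while the lists of intraflagellar transport, BBSome and transition zone and centriole assembly stay between -0.09 and 0.16.

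No test compared these lists with each other, and between the sets their counts are to be read against all genes, of which 25.8% were called lower and 26.2% higher in replicates 3 and 4 at 2 h, and 32.9% and 31.6% at 24 h. Of the 79 further genes of the motile axoneme, 22 were lower and 1 higher in replicates 3 and 4 at 2 h, and 15 lower and 9 higher at 24 h. DNAAF6, a factor of dynein arm assembly, was lower at both times (-2.21, SE 0.47, adjusted p = 0.000646, and -2.05, SE 0.46, adjusted p = 0.000733, edgeR). Of 29 intraflagellar transport genes, 8 were lower and 3 higher at 2 h and 4 lower and 18 higher at 24 h, and of 26 genes of the BBSome and transition zone, 4 were lower and 7 higher and then 1 lower and 17 higher. BBS9, a BBSome subunit, was higher by 1.47 at 24 h (SE 0.09; adjusted p = 8.70e-11). Of 21 Notch genes, 7 were lower and 6 higher at 2 h, not far from the shares of all genes. Among them the targets HEY1 (-2.10, SE 0.27; adjusted p = 5.09e-06) and HES4 (-1.84, SE 0.28; adjusted p = 2.70e-05) and the feedback regulator NRARP (-1.63, SE 0.31; adjusted p = 0.000251) were lower in replicates 3 and 4 at 2 h, while the ligand DLL1 was higher (1.52, SE 0.26; adjusted p = 8.54e-05). CCNA1, a cyclin of meiosis and of cells making many centrioles, was lower at both times (-1.85, SE 0.35, adjusted p = 0.000211, and -1.88, SE 0.36, adjusted p = 0.000136, edgeR). TP73, an upstream factor of the programme, was lower at 2 h (-0.73, SE 0.16, edgeR adjusted p = 0.00104). These are single genes. Summed, the further genes of multiciliated fate ranged from 181.1 to 209.5 CPM in replicates 1 and 2 and from 178.9 to 207.9 in replicates 3 and 4. Centriole assembly genes ranged from 247.9 to 310.5 and from 249.1 to 335.4.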

How the data were processed

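RNA was sequenced as paired ends in 24 libraries, 6 groups of 4. The authors deposited whole-number read counts per gene, unnormalised. Per the submitters' processing notes these came from STAR 2.4.0a and featureCounts (Subread 1.4.6-p1), and the notes name the mouse build GRCm38, although the gene identifiers are those of pig. Which pig assembly and strand setting were used is not given in the sources used here. Reads of overlapping antisense genes cannot be told apart. Features of other organisms held 0.00131% of the counts and were left out.

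Counts were tested with edgeR 4.0.16 (R 4.3.3, limma 3.58.1), quasi-likelihood with robust dispersion and TMM factors of 0.836 to 1.07, on all 24 libraries with 1 term per group. The 14172 genes passing filterByExpr (minimum count 10) were tested and p-values adjusted over all of them by Benjamini-Hochberg, with a threshold of 0.05. The comparison of sets added the set to the model, separately for 2 and 24 h. CPM and RPKM were computed on library sizes scaled by the TMM factors, so they differ from counts over total counts by those factors; the filter of 0.5 CPM used unscaled totals. The procedure was tested on simulated counts with independent libraries and no difference between sets. That test therefore does not cover data such as these, where the sets differ and same-numbered libraries deviate together.

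The members and lists were chosen with earlier results of these data known. All kept members could be named; full statistics were given for called members, for those with the largest change in each role, and for FOXJ1, RSPH1, DNAH5, DNAI1, CCNO and MCIDAS; of the other lists, called genes were named, at most 5 per list and comparison. Alternatives were a replicate block, a set term, other size factors, DESeq2 1.42.0, no filter on low counts, the compared groups or either set alone, leaving out single libraries, and leaving out 5 libraries. Same-numbered libraries deviated together from their group means (correlations of 0.211 to 0.797 over 36 values). In each comparison the best match of a library had its own number for 2 or 3 of the 4 numbers. The split between the sets also raises such correlations, so this check cannot show that the numbers pair the samples. The labels do not say what a number shares.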

Additional observations from a re-analysis of the deposited data

Results flagged for a closer look

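In 13 of 210 groups of 4 libraries, 1 library lay far from the other 3; chance alone puts about 1 in 20 groups there, and the groups share libraries. SB203580 plus flagellin 2 h replicate 2 was the high library for 7 of the 13 members. There RSPH1 was at 1.47 CPM (0.477 to 0.606 in the other 3), ROPN1L at 7.28 CPM (4.26 to 4.38) and DNAH11 at 5.95 CPM (2.45 to 2.99). CFAP52 was at 1.72 CPM there (0.490 to 0.584), CFAP126 at 2.4 CPM (0.894 to 1.06), TPPP3 at 23.5 CPM (15.9 to 16.9) and STK33 at 3.30 CPM (0.606 to 1.03). Flagellin 24 h replicate 1 was high for RSPH9 at 1.86 CPM (0.451 to 0.672), DNAI1 at 0.508 CPM (0.114 to 0.149) and DYNLRB2 at 5.42 CPM (2.11 to 2.28). In SB203580 plus flagellin at 24 h, FOXJ1 was high in replicate 1 at 6.96 CPM (3.46 to 3.65), and DNAH5 was low in replicate 2 at 0.840 CPM (1.65 to 1.80). GMNC was high in PBS 24 h replicate 3 at 2.29 CPM (1.32 to 1.46).

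The difference between replicates 3 and 4 and replicates 1 and 2 changed from 2 to 24 h for MCIDAS, by 1.89 on the log2 scale, and for GMNC, by 1.08, in edgeR's test of that change.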

How the results depend on the processing

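In each of the 6 treatment comparisons and in both tests of a change with time, 0 members were called under every alternative run, single libraries left out included. Over 15 counts of called members, 237 alternative counts stayed within 1.5 times the count reported and 56 did not. For 24 h against 2 h in PBS (1 reported), 2 were called with the replicate block, 2 with the set term, 2 by DESeq2, 0 without a filter, 0 with the compared groups alone and 2 in replicates 3 and 4 alone, and 0 to 3 without single libraries (0 without any one of the 4 PBS 2 h libraries or PBS 24 h replicate 1 or 2, and 3 without PBS 24 h replicate 4). With flagellin (0 reported), 2 were called with the block (18.8% of all genes), 1 with the set term (31.2%) and 1 by DESeq2. In replicates 3 and 4 alone 8 were called (27.7%), without the 5 libraries 1 (10.9%), and without single libraries 0 to 1. With SB203580 plus flagellin (0 reported), 1 was called with the block (17.1% of all genes), 1 with the set term (30.7%) and 1 by DESeq2. The count was 1 with only replicates 1 and 2 (10.9%), 2 with only replicates 3 and 4 (24.7%), and 0 to 0 without single libraries. Over all 6 groups (1 reported), 5 were called with the block (30.5% of all genes), 2 with the set term (38.1%) and 3 by DESeq2. In replicates 3 and 4 alone 13 were called (35.6%), and without single libraries 1 to 2. Apart from these counts the block for the replicate number changed no call. Without the 5 libraries, the sets differed for 30 members at 2 h, 29 at 24 h and 4 in the change between times. Of all genes, 53.9%, 58.5% and 35.1% were called in the same fits. FOXJ1 was lower in those 5 libraries than in the other 7 of their set. Leaving them out therefore widens the set difference by construction and supports nothing. Without single libraries the member count at 2 h ran from 8 (PBS 2 h replicate 1 left out) to 26 (PBS 2 h replicate 2). At 24 h it ran from 8 (PBS or flagellin 24 h replicate 1) to 20 (SB203580 plus flagellin 24 h replicate 2). In the change between times it ran from 1 to 4. The shares of all genes in these single-library fits are not given here. CCDC39 with flagellin reversed in replicates 3 and 4 alone, to 1.04 at 24 h against 2 h (adjusted p = 0.0462, edgeR). The causes were not tested. Low counts, such as 1 to 32 reads per library for DNAI1, limit single genes.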
